A study of Catharanthus roseus with 15 samples.

Results

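The early leaf responses of Catharanthus roseus to 2 hormones were compared at the same sampling time: 3 libraries taken 3 h after ethephon (ETH 3 h) against 3 libraries taken 3 h after methyl jasmonate (MJ 3 h), 6 of the 15 libraries of the series. Seedlings of the cultivar Vitae Rose Red grew in soil in a greenhouse and were sprayed on the leaves with 100 µM ETH or 100 µM MJ. The labels give their age as 2 weeks, whereas the methods give an older age. The other libraries are 3 each of ETH 24 h, MJ 24 h and 0 h. A water spray is described in the methods, but no water-sprayed library was analysed here, so spraying and time of day cannot be told apart from a hormone in any comparison with 0 h. The sources used here do not say how many plants made up each library, and p-values measure only the spread between these libraries, which may be partly technical.

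C. roseus, the Madagascar periwinkle, is the source of the monoterpenoid indole alkaloids (MIAs) catharanthine and vindoline, whose coupling gives the anticancer drugs of the vinblastine type. ETH breaks down inside the plant to ethylene, which is read by receptors in the endoplasmic reticulum. The receptors act through the kinase CTR1 and the membrane protein EIN2 on the transcription factor EIN3, which the F-box proteins EBF1 and EBF2 mark for breakdown. MJ is converted to jasmonic acid and its active conjugate, which frees MYC-type bHLH factors from their repressors, and genes of jasmonate synthesis are themselves among the known targets.

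Total counts were 31168281, 24891866 and 24643794 in the ETH 3 h libraries and 24887071, 30187420 and 26903488 in the MJ 3 h libraries. Levels below are CPM, read counts relative to library size after scaling by the trimmed mean of M values (TMM), and the 3 values of a group are given in the order of the replicate numbers. The label of the samples is leaf. A list of 17 counted chloroplast genes had a summed level of 3235 to 4035 CPM after ETH and 2625 to 3805 CPM after MJ. With no other tissue to compare, these levels describe the libraries and do not test the label. Of the meristem and flower markers, STM and WOX2 stayed at or below 0.249 CPM in all 6 libraries and AGL38 at or below 1.10 CPM, whereas AP3, a MADS factor of petals and stamens, stood at 45.5 to 157 CPM. Across the 18008 genes tested, which are not independent replicates, Pearson's r on the log2(CPM + 1) scale was 0.925 to 0.984 between ETH 3 h libraries, 0.912 to 0.944 between MJ 3 h libraries and 0.887 to 0.960 between libraries of the 2 hormones. Some libraries were more like a library of the other hormone than those of their own. ETH 3 h replicate 1 reached 0.952 with MJ 3 h replicate 1 and at most 0.932 with ETH 3 h libraries. MJ 3 h replicate 2 reached 0.960 with ETH 3 h replicate 3 and at most 0.941 with MJ 3 h libraries. MJ 3 h replicate 1 was also closest to ETH 3 h replicate 1. ETH 3 h replicates 2 and 3 were closest to each other (0.984). MJ 3 h replicate 3 was closest to MJ 3 h replicate 1 (0.944). The first replicates of both hormones stood apart from the others in markers of young tissue. The summed level of 15 cell division genes was 231, 120 and 117 CPM in ETH 3 h and 289, 128 and 140 CPM in MJ 3 h, and that of 18 leaf patterning genes was 577, 259 and 226 CPM in ETH 3 h and 841, 212 and 403 CPM in MJ 3 h. In leaf samples, fewer cells of a type and less RNA per cell cannot be told apart.

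Part of the leaf transcripts differed between the hormones at 3 h. With edgeR's quasi-likelihood test over all 15 libraries, 1241 of 18008 tested genes (6.89%) were called, a call being a Benjamini-Hochberg adjusted p below 0.05 together with a difference of more than 1.5-fold in either direction. Of these, 599 (3.33%) were higher and 642 (3.57%) were lower after ETH than after MJ. The differences were larger among the lower genes: the median log2 fold change was 1.23 in the higher genes and -1.53 in the lower genes, and 119 higher and 213 lower genes differed by more than 4-fold. Levels of the 2 groups did not overlap in 580 of the 599 higher and 628 of the 642 lower genes, while over all tested genes 9.85% did not overlap with ETH above and 10.2% with ETH below. A positive log2 fold change was found in 8670 of the 18008 tested genes. A set of 14 genes lay under 1 CPM in every ETH 3 h library and above 5 CPM in every MJ 3 h library, and 3 genes showed the opposite.

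The number of calls differed between alternatives. The 6 libraries fitted alone gave 64 higher and 111 lower genes, and 174 of these 175 calls were among the 1241. The test over 15 libraries uses an estimate of spread shared by all groups. Its common biological coefficient of variation, a measure of spread between replicates, was 0.342. That is smaller than in the groups compared, which gave 0.411 for ETH 3 h and 0.462 for MJ 3 h when fitted alone. Scaling by library totals gave 755 higher and 534 lower genes, and without MJ 3 h replicate 3 there were 368 higher and 421 lower genes. Without ETH 3 h replicate 3 there were 405 higher and 423 lower genes. Without the first replicates of both hormones the numbers were 559 and 698. A name was at hand for 48 of the 1241 called genes, because symbols come from the study's network tables and from the first 1022 lines of its annotation table. The genes named below are therefore an incomplete sample of the response, and a symbol of the AT form is the closest Arabidopsis gene.

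LOX2, FAD7 and a MYC-family bHLH gene were lower after ETH than after MJ. Of 6 tested members of the jasmonate and plastid lipid list, 3 were called lower and none higher, against 3.57% and 3.33% of all genes. The list median log2 fold change was -1.99, against -0.02 over all tested genes. This list, like the others, was drawn up with earlier results of these data known. Its count and median are therefore not independent evidence of direction. A seventh member, PLA-Ibeta2b, had no counts. LOX2 (CRO_000213), a 13-lipoxygenase that opens jasmonate synthesis, stood at 85.1, 51.0 and 201 CPM after ETH and at 1432, 3442 and 3684 CPM after MJ. FAD7 (CRO_000423), the plastid desaturase that forms the linolenic acid used by LOX2, stood at 100.4, 131 and 155 CPM after ETH and at 780, 1934 and 2343 CPM after MJ. Neither gene overlapped between the groups, and in both the lowest MJ library was replicate 1. The log2 fold change was -4.67 ± 0.84 (SE, edgeR adjusted p = 0.005) for LOX2 and -3.71 ± 0.61 (edgeR adjusted p = 0.003) for FAD7.

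At 0 h, LOX2 varied from 70.0 to 591 CPM and FAD7 from 45.2 to 296 CPM, so the ETH values lay within or close to the 0 h range. Against 0 h, 11.9% of tested genes were called for ETH 3 h (4.76% higher and 7.14% lower) and 20.8% for MJ 3 h (9.55% higher and 11.3% lower), and both comparisons share the 0 h libraries. LOX2 had a log2 fold change of -1.46 ± 0.74 for ETH 3 h over 0 h (edgeR adjusted p = 0.19) and of 3.21 ± 0.78 for MJ 3 h over 0 h (edgeR adjusted p = 0.0099). FAD7 had -0.45 ± 0.55 for ETH (edgeR adjusted p = 0.62) and 3.27 ± 0.60 for MJ (edgeR adjusted p = 0.0022).

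CRO_000734, whose closest Arabidopsis gene is AT5G46760, a bHLH factor of the MYC family that acts in jasmonate signalling there, was close to absent after ETH. Its raw counts were 2, 0 and 5 in ETH 3 h libraries and 626, 679 and 4388 in MJ 3 h libraries, or 0.0564, 0 and 0.200 CPM against 23.0, 24.1 and 173 CPM. The summed counts, scaled for depth, gave an ETH to MJ ratio of 0.00115 (exact 95% interval 0.000464 to 0.00238, counting error only), and edgeR called the gene lower (adjusted p = 0.0068). At 0 h it was at 0.318, 2.57 and 0 CPM.

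The remaining 3 tested members did not pass the test, and 2 of them had a positive log2 fold change. PLA-Ibeta2a, an acyl hydrolase of a family that frees fatty acids from plastid lipids, had 6.03, 5.26 and 2.92 CPM after ETH and 1.58, 1.85 and 3.03 CPM after MJ (1.14 ± 0.42, edgeR adjusted p = 0.12). ACP4, an acyl carrier protein of plastid fatty acid synthesis, had a log2 fold change of -0.28 ± 0.17, and TPR2, a co-repressor of the TOPLESS family, had 0.38 ± 0.25. With edgeR on the 6 libraries alone, FAD7 was called, whereas LOX2 (-4.66, edgeR adjusted p = 0.053) and the AT5G46760 match (edgeR adjusted p = 0.0511) were not, and limma with voom weights did not call the AT5G46760 match either (adjusted p = 0.0503).

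**Figure D1:**
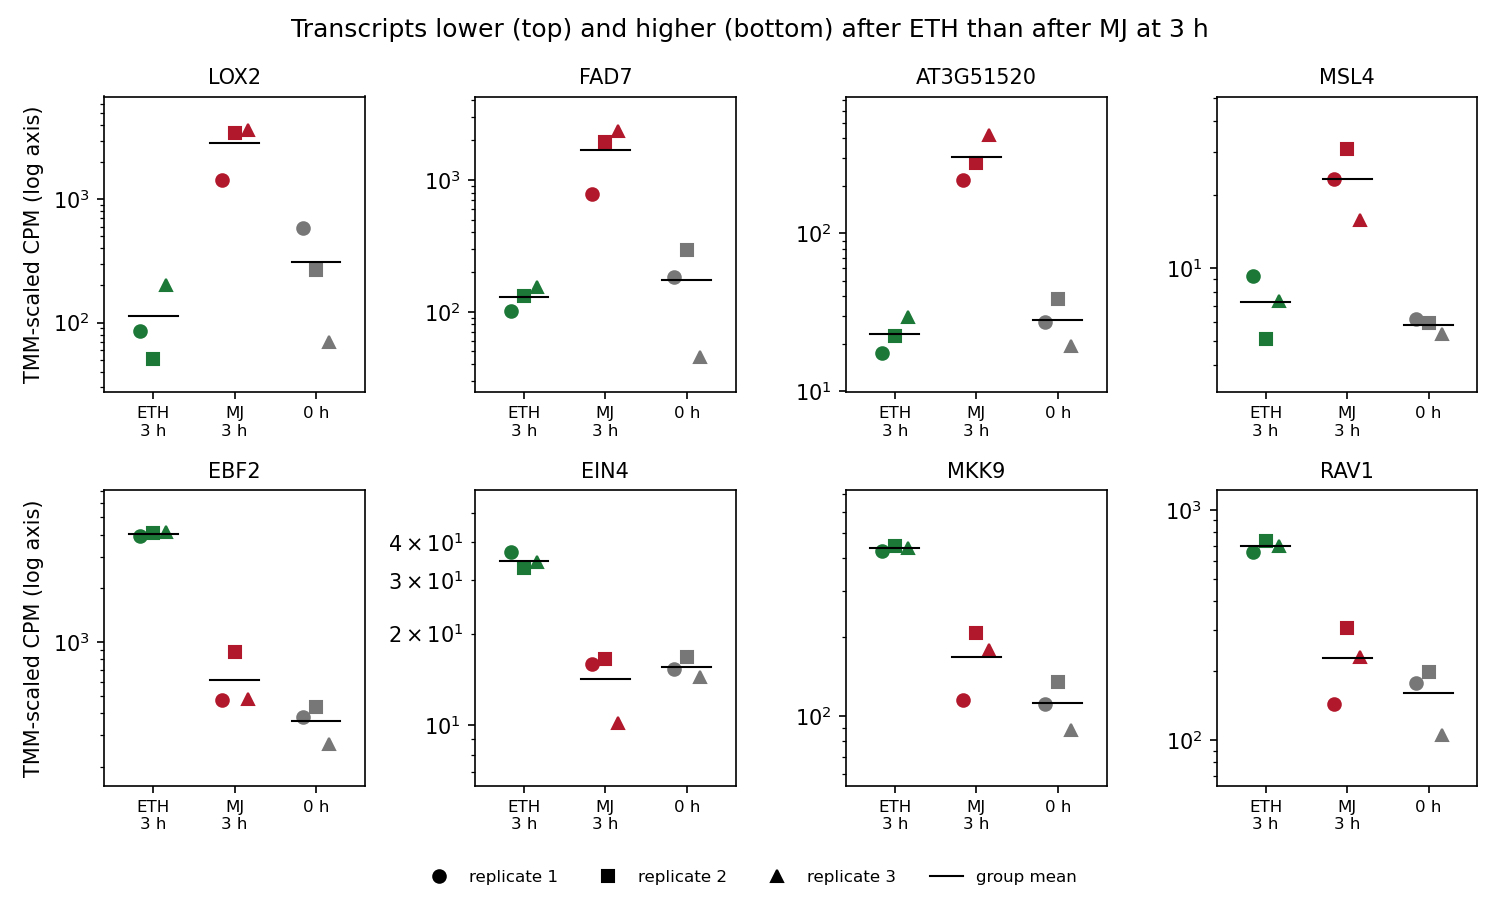
Levels of 8 named genes in TMM-scaled CPM (log axis) in ETH 3 h, MJ 3 h and 0 h leaves. Each point is 1 library, its shape gives the replicate number and the line is the group mean. LOX2, FAD7, AT3G51520 and MSL4 (top) lay lower after ETH than after MJ in all libraries, and EBF2, EIN4, MKK9 and RAV1 (bottom) lay higher.

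Genes of ethylene signalling were higher after ETH or did not pass the test. Of 9 tested members, 3 were called higher and none lower, against 3.33% and 3.57% of all tested genes. Levels in 6 of the 9 did not overlap with ETH above, against 9.85% of all tested genes. The list median log2 fold change was 0.32. The study picked most of the 9 in a network built on the same libraries, so the count is not independent evidence of their direction. EBF2 (CRO_005880), the F-box protein that marks EIN3 for breakdown and is itself an ethylene target in Arabidopsis, stood at 3929, 4111 and 4130 CPM after ETH and at 474, 885 and 480.1 CPM after MJ. The ETH libraries thus lay close together at a high level, and every MJ library lay far below them. Its log2 fold change was 2.73 ± 0.34 (edgeR adjusted p = 0.00049). The receptor gene EIN4 (CRO_020097) stood at 37.0, 32.8 and 34.3 CPM after ETH and at 15.9, 16.5 and 10.1 CPM after MJ, a log2 fold change of 1.29 ± 0.17 (edgeR adjusted p = 0.00073). MKK9 (CRO_011505), a MAP kinase kinase linked with ethylene, stood at 426, 446 and 437 CPM after ETH and at 116, 208 and 179 CPM after MJ, a log2 fold change of 1.38 ± 0.21 (edgeR adjusted p = 0.0017).

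Levels at 0 h were 269.9 to 434 CPM for EBF2, 14.3 to 16.8 CPM for EIN4 and 88.4 to 135 CPM for MKK9. They overlapped with the MJ levels in EIN4 and MKK9, whereas all MJ libraries lay above 0 h in EBF2. For ETH 3 h over 0 h the log2 fold change was 3.49 ± 0.35 for EBF2 (edgeR adjusted p = 0.0003), and for MJ 3 h over 0 h it was 0.76 ± 0.32 (edgeR adjusted p = 0.097).

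The core transducers of the pathway showed smaller differences. CTR1, the kinase that holds the pathway off without ethylene, stood at 84.5, 96.9 and 105 CPM after ETH and at 64.0, 81.9 and 69.0 CPM after MJ. Its adjusted p of 0.043 (edgeR) was under the threshold, but its log2 fold change of 0.42 ± 0.11 was below the fold required. EIN3 (CRO_017077), the transcription factor at the end of the pathway, stood at 864, 710.4 and 700.3 CPM after ETH and at 587, 634 and 607 CPM after MJ, without overlap and without passing the test (0.32 ± 0.14, edgeR adjusted p = 0.20). The receptor gene ETR1 had a log2 fold change of 0.22 ± 0.11. The 2 EIN2 genes had values of 0.03 ± 0.09 and 0.02 ± 0.09, and EER4, a TFIID subunit linked with the ethylene response, had -0.09 ± 0.12. An ID named EIL1 reached at most 0.257 CPM in the 6 libraries and was not tested. With edgeR on the 6 libraries alone EBF2 was called, whereas EIN4 (edgeR adjusted p = 0.0691) and MKK9 (edgeR adjusted p = 0.0649) were not.

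Of 6 tested AP2/ERF factors, the family of DNA-binding proteins that includes the ethylene response factors, 4 were called higher after ETH and none lower. Over all tested genes 3.33% were called higher and 3.57% lower. The median log2 fold change of the 6 was 1.10, and the 4 called members were again taken from the study's network of these libraries. RAV1 (CRO_031165), an AP2/B3 factor, stood at 657, 736 and 694 CPM after ETH and at 143, 308 and 229 CPM after MJ, a log2 fold change of 1.62 ± 0.29 (edgeR adjusted p = 0.005). ERF13 (CRO_008428) stood at 333, 398 and 301 CPM after ETH and at 121, 166 and 77.0 CPM after MJ, a log2 fold change of 1.5 ± 0.30 (edgeR adjusted p = 0.0091). In neither gene did the groups overlap, and their levels at 0 h were 105 to 198 CPM for RAV1 and 65.8 to 153 CPM for ERF13.

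RAP2.12 (CRO_001062), an ERF factor whose Arabidopsis namesake acts in the response to low oxygen, stood at 757, 792 and 681 CPM after ETH and at 398, 508 and 476 CPM after MJ, a log2 fold change of 0.69 ± 0.15 (edgeR adjusted p = 0.014). Here both hormones lay above the 192 to 262 CPM of 0 h, with log2 fold changes over 0 h of 1.72 ± 0.15 for ETH and 1.03 ± 0.15 for MJ, both called. ERF15 (CRO_019273) stood at 34.4, 39.9 and 22.4 CPM after ETH and at 2.13, 7.21 and 4.77 CPM after MJ, a log2 fold change of 2.78 ± 0.74 (edgeR adjusted p = 0.038). Its call did not survive leaving out any 1 of ETH 3 h replicates 1, 2 and 3 or of MJ 3 h replicates 1 and 3 (log2 fold change 2.44 to 2.98, adjusted p 0.0577 to 0.117). None of the 4 called members was called with edgeR on the 6 libraries alone (edgeR adjusted p 0.0676 to 0.15), and without both first replicates RAP2.12 (edgeR adjusted p = 0.0737) and ERF15 (edgeR adjusted p = 0.131) were not called. The cytokinin response factors CRF3 and CRF4 stood highest in the first replicates of both hormones, at 3.10 and 3.89 CPM after ETH and 6.61 and 4.19 CPM after MJ, and at or below 1.34 CPM in the other 4 libraries. AT5G18450, the last member, was too low to be tested, at 0.942 CPM or less.

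Of 30 other transcription factors, 9 were called higher after ETH, none was called lower, and 29 had a positive log2 fold change (median 0.32). Over all tested genes 3.33% were called higher, and 8670 of 18008 had a positive log2 fold change. The 30 come from the study's networks of its green and pink co-expression modules, which it describes as more responsive to ethylene in these libraries. Their counts are therefore not independent evidence of direction. The largest called log2 fold change was that of HB1 (CRO_026277), a homeobox gene, at 183, 184 and 173 CPM after ETH and 28.3, 69.5 and 41.2 CPM after MJ (1.96 ± 0.40, edgeR adjusted p = 0.0098). The bHLH genes bHLH130 (1.58 ± 0.30), bHLH128 (1.47 ± 0.27) and CRO_015412 (1.07 ± 0.14), the GRAS factor SCL14 (1.09 ± 0.22), the zinc finger factor NFXL1 (0.70 ± 0.12) and AP3 (1.14 ± 0.19) were called as well, and in none did the groups overlap. AP3 stood at 99.9, 157 and 81.7 CPM after ETH and at 51.1, 45.5 and 56.9 CPM after MJ.

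The calls of WRKY53 (1.24 ± 0.33) and MYB73 (0.69 ± 0.19) were less stable. WRKY53 was not called when any ETH 3 h library or MJ 3 h replicate 1 or 3 was left out (1.09 to 1.28, adjusted p 0.0516 to 0.101), and MYB73 was not called when ETH 3 h replicate 2 or 3, or MJ 3 h replicate 1 or 2, was left out (0.50 to 0.74, adjusted p 0.0724 to 0.14). Without both first replicates 6 of the 30 factors were called higher, HB1 being lost as well (1.68, edgeR adjusted p = 0.0516), and with edgeR on the 6 libraries alone 1 was, the bHLH gene CRO_015412.

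**Figure D2:**
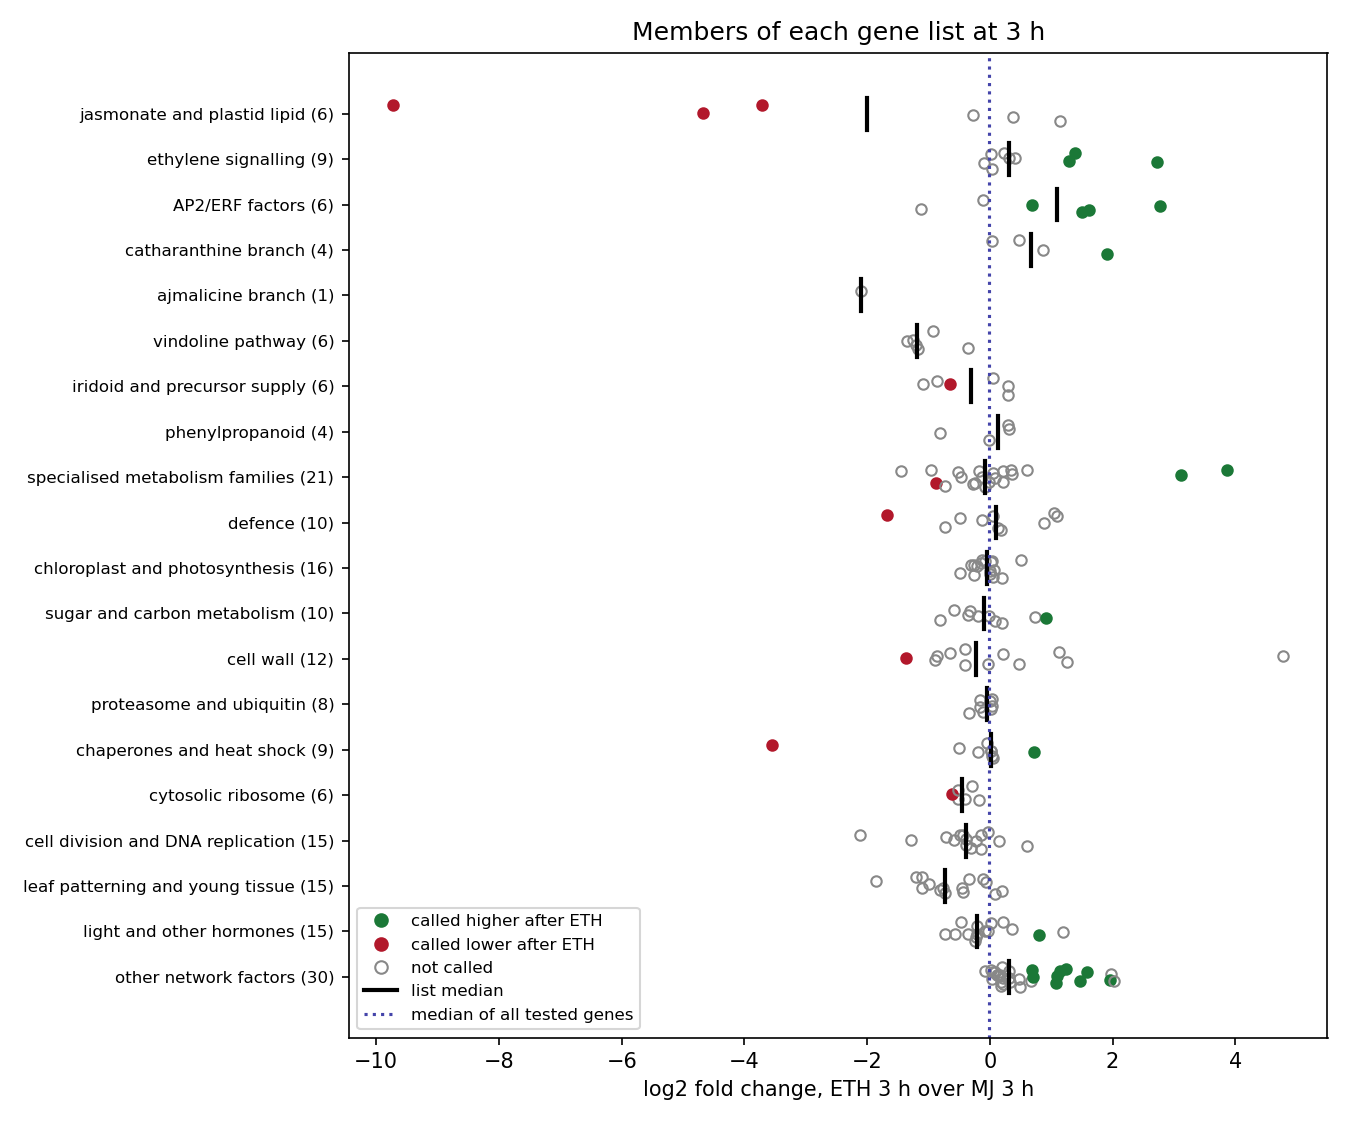
Log2 fold change of ETH 3 h over MJ 3 h (x axis) for each tested member of the 20 gene lists (rows, number tested in brackets). Filled points are called genes, open points are not called, black bars are list medians and the dotted line is the median of all tested genes, -0.02. Called members of the ethylene signalling, AP2/ERF and other network lists all lie to the right, and those of the jasmonate list all lie to the left.

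In the catharanthine branch, all 4 tested members had a positive log2 fold change (median 0.66), and 1 was called. The study places these genes in its green and pink modules, which it describes as more responsive to ethylene in these libraries. Their shared sign is therefore not independent evidence of direction. CS (CRO_021730), catharanthine synthase, was called higher at an adjusted p of 0.0498 (edgeR), with 0.733, 1.49 and 1.36 CPM after ETH and 0.477, 0.0711 and 0.394 CPM after MJ. These levels rest on 26, 38 and 34 counts after ETH and on 13, 2 and 10 counts after MJ, a summed ratio of 3.68 (exact 95% interval 2.35 to 5.96, counting error only). The log2 fold change was 1.91 ± 0.54, and the call held under 5 of 17 alternatives. It was lost when ETH 3 h replicate 2 or 3, or MJ 3 h replicate 2 or 3, was left out (1.42 to 2.08, edgeR adjusted p 0.0638 to 0.143), and with edgeR on the 6 libraries alone (adjusted p = 0.301).

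TS (CRO_011212), tabersonine synthase, which acts on the same intermediate as CS and opens the route to vindoline, was far more abundant. It stood at 1842, 1946 and 1742 CPM after ETH and at 1138, 1358 and 551 CPM after MJ. The groups did not overlap, but the difference did not pass the test (0.86 ± 0.39, edgeR adjusted p = 0.22). At 0 h TS varied from 392 to 1268 CPM. GO, geissoschizine oxidase, stood at 20.6, 15.6 and 24.4 CPM after ETH and 16, 15.1 and 12.7 CPM after MJ, and PRX1, a peroxidase that couples catharanthine with vindoline, at 339, 547 and 614 CPM after ETH and 299, 712 and 445 CPM after MJ. In both the groups overlapped, and neither passed the test.

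Vindoline pathway genes had lower mean levels after ETH, with overlap in every gene and no call. All 6 tested members had a negative log2 fold change (median -1.19). The study places these genes in its turquoise co-expression module, which was built on these libraries. Their shared sign is therefore not 6 independent observations. D4H (CRO_012504), desacetoxyvindoline 4-hydroxylase, stood at 255, 42.2 and 106 CPM after ETH and at 422, 189.6 and 303 CPM after MJ (-1.18 ± 0.50, edgeR adjusted p = 0.19). T16OMT, the 16-O-methyltransferase, stood at 142, 31.7 and 29.7 CPM after ETH and at 258, 54.3 and 157 CPM after MJ (-1.21 ± 0.63, edgeR adjusted p = 0.30), and T3R, the 3-reductase, at 532, 147 and 159.9 CPM after ETH and at 882, 221 and 493 CPM after MJ (-0.93 ± 0.55, edgeR adjusted p = 0.37). In all of these the first replicate was the highest library of its group under both hormones. The same held for T16H1/2 (-1.25 ± 0.88) and NMT (-1.35 ± 0.85), and for T3O, which rested on 26, 0 and 0 counts after ETH and on 21, 0 and 6 counts after MJ.

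The first replicate was the highest library under both hormones in all 6 vindoline genes, in 11 of 15 cell division genes and in 14 of 15 leaf patterning genes, against 24.6% of all tested genes. The summed cell division level was 117 to 231 CPM after ETH and 128 to 289 CPM after MJ. Of the 15 tested members of each marker list, 2 in each had a positive log2 fold change, the medians were -0.38 and -0.73, and no member was called. The part of young tissue in the vindoline values was not tested. Without ETH 3 h replicate 1, T16OMT (-2.38, edgeR adjusted p = 0.0282) and D4H (-2.06, edgeR adjusted p = 0.0164) were called lower, and without both first replicates D4H was (-1.74, edgeR adjusted p = 0.0363) and T16OMT was not. Limma with voom weights also called T16OMT (-1.91, adjusted p = 0.0478) and D4H (-1.92, adjusted p = 0.0488) lower, whereas DESeq2 called no member of the list, and at an unadjusted p under 0.05 edgeR gave 1.

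HYS (CRO_008342), the heteroyohimbine synthase that leads to ajmalicine, stood at 14.5, 2.55 and 4.79 CPM after ETH and at 62.7, 6.08 and 25.2 CPM after MJ. The groups overlapped, and the log2 fold change of -2.10 ± 0.74 did not pass the test (edgeR adjusted p = 0.11). It was called lower without ETH 3 h replicate 1 (-3.12, edgeR adjusted p = 0.0348), without MJ 3 h replicate 2 (-2.58, edgeR adjusted p = 0.0292) and by DESeq2 (-2.10, adjusted p = 0.0294). Over 0 h (2.2 to 4.17 CPM) its log2 fold change was 1.29 ± 0.74 for ETH (edgeR adjusted p = 0.25) and 3.38 ± 0.79 for MJ (edgeR adjusted p = 0.0076).

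**Figure D3:**
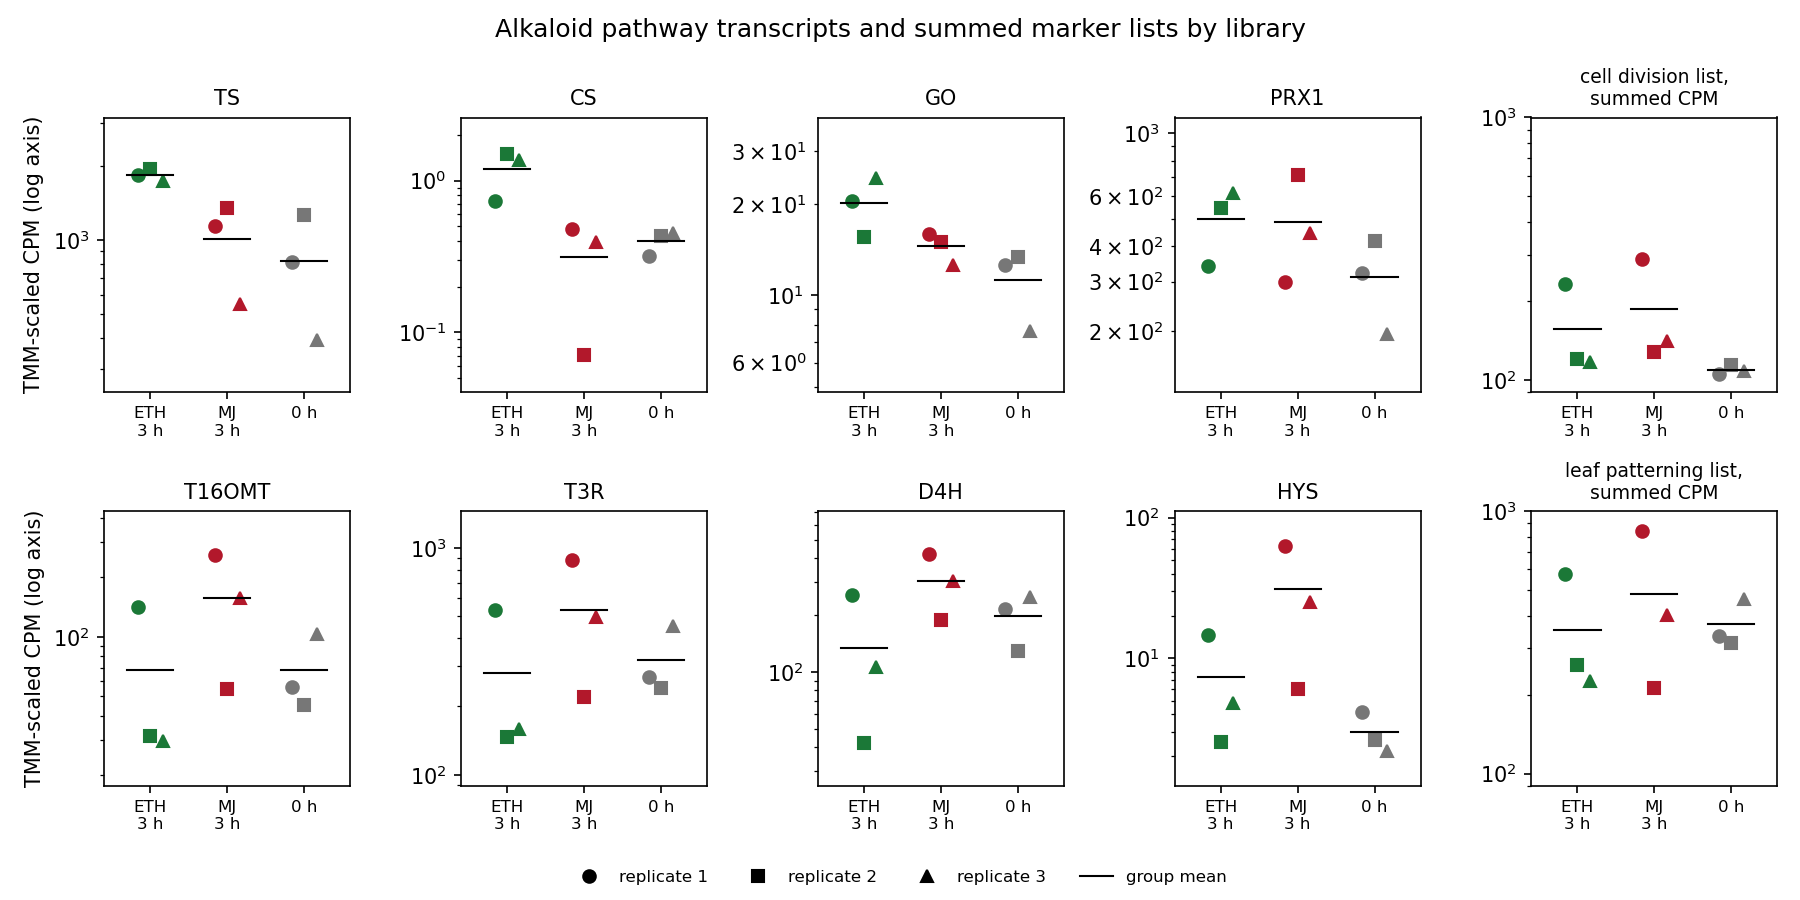
Levels of 8 MIA pathway genes, and summed levels of the cell division and leaf patterning lists, in TMM-scaled CPM (log axes) by library in ETH 3 h, MJ 3 h and 0 h leaves. Shapes give the replicate number and lines the group mean. In T16OMT, T3R, D4H and HYS, and in both summed lists, replicate 1 (circles) is the highest library under each hormone, whereas TS and CS show all ETH libraries above all MJ libraries.

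In precursor supply, 1 of 6 tested genes was called. HDR (CRO_000829), which catalyses the final step of plastid isoprenoid precursor synthesis, was lower after ETH, at 517, 491 and 594 CPM, against 741, 838 and 942 CPM after MJ (-0.65 ± 0.15, edgeR adjusted p = 0.018). It was not called with ETH 3 h replicate 2 left out (-0.59, edgeR adjusted p = 0.075), with MJ 3 h replicate 3 left out (-0.57, edgeR adjusted p = 0.0642), or after scaling by library totals, where its log2 fold change of -0.55 was below the fold required. With edgeR on the 6 libraries alone its adjusted p was 0.185. G8O, geraniol 8-oxidase, an early step of iridoid synthesis, stood at 266, 68.4 and 87.4 CPM after ETH and at 443, 279.9 and 177 CPM after MJ (-1.09 ± 0.52, edgeR adjusted p = 0.24) and was called only without ETH 3 h replicate 1 (-1.97, adjusted p = 0.0258) among the alternatives tried. BIS2, a bHLH regulator of iridoid genes, stood at 7.72, 1.81 and 1.64 CPM after ETH and at 13.8, 3.23 and 3.47 CPM after MJ. The first replicate was the highest library under both hormones in 4 of the 6 genes, G8O and BIS2 among them, and the part of young tissue in these values was not tested. GGPS1 (0.04 ± 0.86), TRP1 (0.30 ± 0.32) and AS1 (0.30 ± 0.31) did not pass the test.

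No gene of the phenylpropanoid list was called. C4H, cinnamate 4-hydroxylase, stood at 248, 515 and 329 CPM after ETH and at 420.4, 631 and 871 CPM after MJ (-0.82 ± 0.32, edgeR adjusted p = 0.16). The groups overlapped, and the MJ libraries were called higher than 0 h (1.32). MYB4, a repressor of C4H in Arabidopsis, had 6.09, 6.98 and 6.99 CPM after ETH and 4.85, 4.87 and 6.66 CPM after MJ (0.29 ± 0.20). The methyltransferase family gene AT4G26220 (-0.01 ± 0.12) and FLS3, a flavonol synthase family gene (0.31 ± 0.60), did not pass the test either, and PAP1, MYB43 and AT1G07730 were at or below 0.0734 CPM and were not tested.

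Among enzyme families of specialised metabolism, 2 of 21 tested genes were called higher and 1 lower, with a median of -0.08. Over all tested genes 3.33% were called higher and 3.57% lower. CRO_000174, matched to the berberine bridge enzyme-like oxidase AT4G20820, stood at 1666, 1518 and 1374 CPM after ETH and at 79.6, 358 and 85.9 CPM after MJ (3.12 ± 0.57, edgeR adjusted p = 0.0054). Its 0 h level was 59.8 to 148 CPM. CRO_000105, matched to the 2-oxoglutarate-dependent oxygenase AT4G10490, stood at 5.50, 15.1 and 8.83 CPM after ETH and at 0.734, 0.782 and 0.473 CPM after MJ (3.87 ± 0.55, edgeR adjusted p = 0.0011). At 0 h it was at 2.56 to 4.89 CPM, and it was called lower after MJ than at 0 h (-2.56) and was not called for ETH (1.32 ± 0.49, edgeR adjusted p = 0.085). A MATE efflux family gene, CRO_000841, was lower after ETH, at 12.7, 8.79 and 9.23 CPM, against 15.1, 20 and 21.7 CPM after MJ (-0.89 ± 0.23). That call was lost when replicate 2 or 3 of either hormone was left out (-0.84 to -0.77, adjusted p 0.07 to 0.128). On the 6 libraries alone, edgeR called CRO_000105 but not CRO_000174 (adjusted p = 0.111) or CRO_000841 (adjusted p = 0.166).

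Growth and housekeeping lists held few calls. None of 16 chloroplast, 8 proteasome, 15 cell division or 15 leaf patterning genes was called in either direction. Over all tested genes 6.89% were called, so lists this small can hold no call without differing from other genes. At an unadjusted p under 0.05 edgeR gave 0, 1, 2 and 0 in these lists, against 3926 of all 18008 genes, and DESeq2 and limma with voom weights called none. Without both first replicates 1 leaf patterning gene was called lower. All 6 cytosolic ribosome genes had a negative log2 fold change (median -0.46), 5 of them without overlap between the groups. In 4 of the 6 edgeR gave an unadjusted p under 0.05, and 1 was called. Over all tested genes 10.2% did not overlap with ETH below, and 3.57% were called lower. The called member was the ribosomal protein gene AT3G02560, at 32.0, 28.6 and 29.4 CPM after ETH and 38.1, 52.2 and 47.9 CPM after MJ (-0.62 ± 0.17, edgeR adjusted p = 0.040). The call was lost with replicate 2 or 3 of either hormone left out (-0.60 to -0.52, adjusted p 0.103 to 0.123), and with edgeR on the 6 libraries alone (adjusted p = 0.149).

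In the remaining lists the called members were few. MSL4 (CRO_000898), a mechanosensitive ion channel gene, was the called member of 10 tested defence genes, at 9.30, 5.10 and 7.35 CPM after ETH and 23.1, 30.8 and 15.7 CPM after MJ (-1.68 ± 0.27, edgeR adjusted p = 0.0026). A small heat shock protein gene matched to AT2G29500 stood at 0.789, 3.37 and 1.24 CPM after ETH and at 9.80, 22 and 31.6 CPM after MJ (-3.56 ± 0.79, edgeR adjusted p = 0.016). The other chaperone call was the heat shock factor HSFA3, in the other direction (0.72 ± 0.19, edgeR adjusted p = 0.039). AT2G29500 was not called when replicate 3 of either hormone was left out (-3.35 to -3.16, adjusted p 0.0527 to 0.072), nor HSFA3 when any ETH 3 h library or MJ 3 h replicate 1 or 3 was (0.63 to 0.78, adjusted p 0.0605 to 0.135). On the 6 libraries alone, edgeR did not call MSL4 (adjusted p = 0.102), AT2G29500 (adjusted p = 0.0937) or HSFA3 (adjusted p = 0.161).

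Other single calls were a pfkB-type sugar kinase matched to AT1G66430, a pectin acetylesterase matched to AT1G57590, and PIF4. The sugar kinase gene was higher after ETH, at 190.0, 164 and 173 CPM, against 81.2, 110 and 89.4 CPM after MJ (0.91 ± 0.13, edgeR adjusted p = 0.0013). The pectin acetylesterase gene was lower after ETH, at 91.3, 93.5 and 109 CPM, against 158, 237 and 364 CPM after MJ (-1.37 ± 0.29, edgeR adjusted p = 0.013), and missed the threshold without ETH 3 h replicate 2 (-1.33, adjusted p = 0.0514). PIF4, a bHLH factor of light and temperature responses, was higher with overlap between the groups (0.80 ± 0.22, edgeR adjusted p = 0.047), and was not called when ETH 3 h replicate 2 or 3, or MJ 3 h replicate 1 or 3, was left out (0.53 to 0.81, adjusted p 0.105 to 0.153). On the 6 libraries alone, edgeR did not call the sugar kinase gene (adjusted p = 0.066), the pectin acetylesterase gene (adjusted p = 0.12) or PIF4 (adjusted p = 0.274).

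Beyond the lists, large differences with an Arabidopsis match included lipid and transport genes. CRO_000242, matched to the diacylglycerol acyltransferase family gene AT3G51520, an enzyme class that stores fatty acids as triacylglycerol, stood at 17.5, 22.4 and 29.4 CPM after ETH and at 217, 279 and 419.7 CPM after MJ. Its log2 fold change was -3.73 ± 0.30 (edgeR adjusted p = 3.2e-05), and it was called under all 18 alternatives tried for single genes. Its 0 h level of 19.5 to 38.3 CPM was close to that after ETH. CRO_000328, matched to the auxin efflux carrier family gene AT1G20925, stood at 2.65, 3.41 and 3.60 CPM after ETH and at 40.5, 55.1 and 52.4 CPM after MJ (-3.94 ± 0.51, edgeR adjusted p = 0.0007) and was also called under all 18. In this gene it was the ETH level that departed from 0 h, which was 31.2 to 40.8 CPM.

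OPT3 (CRO_000102), an oligopeptide transporter known in Arabidopsis for iron signalling, stood at 189.0, 340.8 and 362.8 CPM after ETH and at 52.4, 74.7 and 29.8 CPM after MJ (2.51 ± 0.33, edgeR adjusted p = 0.00073). With 96.7 to 150.2 CPM at 0 h, it was called higher after ETH and lower after MJ than at 0 h, by 1.26 ± 0.32 and -1.25 ± 0.32 on the log2 scale. A mannose-binding lectin family gene matched to AT1G78830 was among the most abundant of these transcripts, at 4629, 3726 and 6296 CPM after ETH and 874, 1792 and 489 CPM after MJ (2.22 ± 0.42, edgeR adjusted p = 0.007). EXO70E1, a subunit of the exocyst that tethers secretory vesicles, stood at 85.9, 125 and 96.0 CPM after ETH and at 40.7, 40.8 and 46.1 CPM after MJ (1.26 ± 0.17, edgeR adjusted p = 0.00076). On the 6 libraries alone, edgeR called EXO70E1 but not OPT3 (adjusted p = 0.0645) or the lectin family gene (adjusted p = 0.15).

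Further genes called higher after ETH were matched to AT3G22104, of the phototropic-responsive NPH3 family (1.37 ± 0.25), to AT4G16490, of the ARM repeat superfamily (0.96 ± 0.12), to AT2G38800, related to calmodulin-binding proteins (0.88 ± 0.22), and to AT5G09460, a transcription regulator (0.77 ± 0.15). Further genes called lower were matched to the subtilases AT4G10520 (-1.57 ± 0.22) and AT2G05920 (-1.18 ± 0.24) and to the zinc transporter ZAT (-1.15 ± 0.21). None of these further genes was called with edgeR on the 6 libraries alone (edgeR adjusted p 0.0649 to 0.228). AT2G38800 was not called when ETH 3 h replicate 2 or 3, or MJ 3 h replicate 1 or 3, was left out (0.66 to 0.88, adjusted p 0.0732 to 0.105). The 2 subtilase genes stood at 2.48 to 3.33 and 9.85 to 10.7 CPM after ETH, against 5.58 to 10.1 and 15 to 32.5 CPM after MJ.

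The 2 largest falls with a mean above 5 CPM were in genes without a name here. CRO_019653 had 0, 1 and 1 raw counts after ETH and 2685, 951 and 3142 after MJ, and CRO_010024 had 0, 1 and 1 counts after ETH and 562, 635 and 3508 after MJ. The ETH to MJ ratios of summed counts were 0.000277 (exact 95% interval 3.36e-05 to 0.001) and 0.000399 (4.83e-05 to 0.00144), for counting error only. Of the 2 largest rises, CRO_003531 stood at 13.1, 27.4 and 21.3 CPM after ETH and at 0.551, 0.711 and 0.0394 CPM after MJ (5.54 ± 0.68, edgeR adjusted p = 0.00047). It was not called with edgeR on the 6 libraries alone (edgeR adjusted p = 0.0553). CRO_013307 rested mainly on 1 library, with 52.8, 2.16 and 0.200 CPM after ETH and 0.330, 0.0711 and 0.0788 CPM after MJ, so that the groups overlapped. Its log2 fold change of 6.80 was 2.81 with ETH 3 h replicate 1 left out (edgeR adjusted p = 0.0889) and 3.14 by limma with voom weights (adjusted p = 0.447), and the call was also lost without MJ 3 h replicate 2 or 3 (edgeR adjusted p 0.0663 and 0.0965).

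Whether the hormone difference was the same a day after the spray was asked in 6 other libraries. Between ETH 24 h and MJ 24 h, 187 of 18008 genes (1.04%) were called, 108 (0.6%) higher and 79 (0.439%) lower after ETH, and this comparison shares no library with that at 3 h. Levels did not overlap in 15% of tested genes with ETH above and 13.6% with ETH below, against 9.85% and 10.2% at 3 h. Limma with voom weights called 675 higher and 979 lower genes at 24 h, against 622 and 750 at 3 h. Which time had more called genes thus differed between methods, and the cause was not tested. Of the 599 genes higher at 3 h, 47 were also called higher at 24 h (7.85% of the 3 h list and 43.5% of the 24 h list). Of the 642 genes lower at 3 h, 14 were also called lower at 24 h (2.18% and 17.7%). In the opposite direction at 24 h were 8 of the genes higher and 2 of the genes lower at 3 h. At 24 h the median log2 fold change was 0.13 in the genes higher at 3 h and -0.07 in the genes lower at 3 h, with 367 of 599 positive and 357 of 642 negative there. Since the genes were chosen by their 3 h difference, these medians are a description only.

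The difference between the times was tested directly as the log2 fold change at 3 h minus that at 24 h, and 595 genes (3.3%) were called, 273 (1.52%) above and 322 (1.79%) below zero. These counts moved from 108 to 577 above and from 148 to 500 below zero when single libraries were left out, with the lowest numbers without ETH 24 h replicate 3 and ETH 24 h replicate 1 and the highest without ETH 3 h replicate 1.

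The ethylene and AP2/ERF genes called at 3 h were also higher in mean level after ETH at 24 h. At 24 h, EBF2 averaged 4193 CPM after ETH and 1112 CPM after MJ, with a log2 fold change of 1.92 ± 0.33 (edgeR adjusted p = 0.021), and EIN4 (1.06 ± 0.17), MKK9 (1.15 ± 0.21), RAP2.12 (0.95 ± 0.15) and ERF15 (4.20 ± 0.81) were called higher too, as was the sugar kinase gene (1.12 ± 0.13). The auxin efflux carrier gene was called lower at both times (-2.43 ± 0.49 at 24 h). No gene of the ethylene or AP2/ERF lists was called in the difference between the times. For EBF2 that difference was 0.81 ± 0.45 (edgeR adjusted p = 0.40), and for RAV1 and ERF13, which were not called at 24 h, it was 1.23 ± 0.40 (edgeR adjusted p = 0.13) and 1.19 ± 0.42 (edgeR adjusted p = 0.16). A different course in these 2 genes was therefore not shown.

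No jasmonate gene was called at 24 h. LOX2 averaged 189 CPM after ETH and 111 CPM after MJ at 24 h, a log2 fold change of 0.77 ± 0.73 (edgeR adjusted p = 0.70), and its difference between the times was -5.44 ± 1.09 (edgeR adjusted p = 0.021). FAD7 averaged 32.1 CPM after ETH and 63.3 CPM after MJ at 24 h, and its difference between the times of -2.73 ± 0.79 did not pass the test (edgeR adjusted p = 0.089). The AT5G46760 match had no count in any MJ 24 h library. For HYS the difference between the times was -3.46 ± 1.05 (edgeR adjusted p = 0.10).

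**Figure D4:**
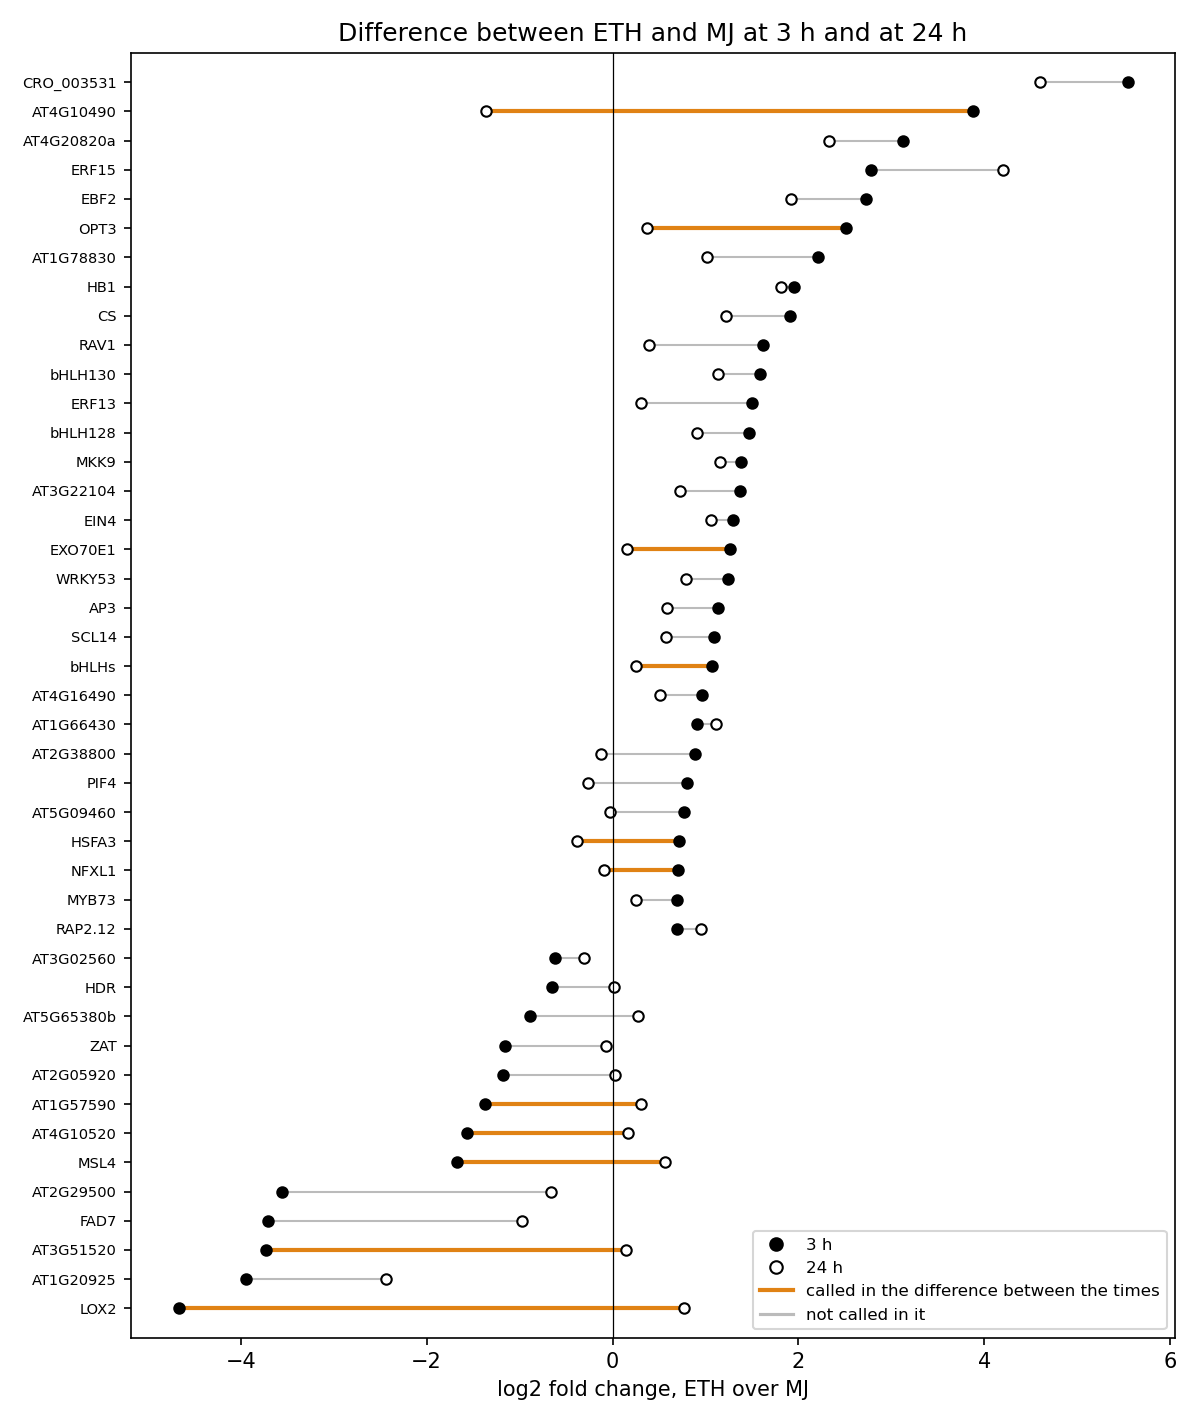
Log2 fold change of ETH over MJ at 3 h (filled) and 24 h (open) for 43 named genes called at 3 h, ordered by the 3 h value. Orange lines mark the 11 genes called in the test of the difference between the times, among them LOX2, AT3G51520 and MSL4 below zero and AT4G10490 and OPT3 above. The genes were chosen by their 3 h difference.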

How the data were processed

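RNA was sequenced from leaves of 5 groups of 3 libraries each. Reads were cleaned by the authors and aligned with HISAT2, version 2.0.4 according to the submitters' processing notes, and the deposited values are raw HTSeq counts per gene. The methods name 2 sources of the C. roseus genome, and which of them lies behind the counts is not stated, nor is the strand setting. Antisense overlap therefore cannot be resolved, and no pooling of replicates is stated.

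Of 33829 genes, 18008 passed edgeR's filterByExpr. Totals were 23710688 to 31168281 counts per library, and no 2 libraries were identical. EdgeR 4.0.16 (R 4.3.3) fitted group means over all 15 libraries with TMM scaling and the quasi-likelihood test, so the groups share 1 estimate of the spread. The common biological coefficient of variation was 0.342, and in groups fitted alone 0.411 for ETH 3 h, 0.462 for MJ 3 h, 0.179 for ETH 24 h, 0.298 for MJ 24 h and 0.279 for 0 h. Standard errors were the log2 fold change divided by the square root of F. Intervals of count ratios are exact 95% binomial intervals. Scripts were tested on simulated data.

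Named genes were all members of 8 pathway lists, called members of 12 other lists, the 12 largest rises and falls with an Arabidopsis match and no overlap, and 2 IDs each way above a mean of 5 CPM. The comparison, its members and the lists were chosen with earlier results of these data known. Alternatives used DESeq2 1.42.0, limma 3.58.1 with voom sample weights, other scalings, filters and fold thresholds, fewer libraries and a replicate block. Figures were drawn with matplotlib 3.10.9. No sequences were used here.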

Additional observations from a re-analysis of the deposited data

Results flagged for a closer look

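In 11 named genes the difference between ETH and MJ was not the same at 3 h and 24 h by edgeR's test of the difference itself, given here as the log2 fold change at 3 h minus that at 24 h. The genes were named for their 3 h values. LOX2 had a difference of -5.44 (adjusted p = 0.021), with -4.67 at 3 h and 0.77 at 24 h. For AT3G51520 it was -3.87 (adjusted p = 0.0007), with -3.73 and 0.14. MSL4 had -2.24 (adjusted p = 0.0085), the subtilase AT4G10520 had -1.74 (adjusted p = 0.011) and the pectin acetylesterase AT1G57590 had -1.68 (adjusted p = 0.046), and all 3 were lower after ETH at 3 h and not called at 24 h.

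The other 6 were higher after ETH at 3 h. AT4G10490 had a difference of 5.24 (adjusted p = 0.003), with 3.87 at 3 h and -1.37 at 24 h, where it was not called. OPT3 had 2.14 (adjusted p = 0.025), EXO70E1 had 1.10 (adjusted p = 0.026), HSFA3 had 1.10 (1.105, adjusted p = 0.047), the bHLH gene CRO_015412 had 0.82 (adjusted p = 0.041) and NFXL1 had 0.80 (0.795, adjusted p = 0.030). None of the 11 was called between the hormones at 24 h.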

How the results depend on the processing

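At 3 h the counts of higher and lower genes were 599 and 642, and 930 and 907 with DESeq2, 64 and 111 with edgeR on the 6 libraries alone, 390 and 458 above 2-fold, and 186 and 289 when glmTreat tested against 1.5-fold. Leaving out single libraries gave 368 to 747 higher and 421 to 732 lower genes. At 24 h (108 and 79) DESeq2 gave 349 and 454, limma with voom weights 675 and 979, library totals 176 and 86, and single libraries left out 16 to 71 and 4 to 127. For the difference between the times (273 and 322) DESeq2 gave 715 and 609, voom 575 and 591, leaving out both first replicates 428 and 485, and single libraries left out 108 to 577 and 148 to 500. The cause of these shifts was not tested. Without a block, the fit of the 6 libraries leaves 4 residual degrees of freedom in place of 10. It also rests on the ETH 3 h and MJ 3 h groups, whose coefficients of variation were 0.411 and 0.462, against 0.342 over all libraries. Genes without overlap at 3 h were 1774 and 1828, and 2773 and 1221 by library totals. Alternatives at 24 h and for lists that leave out libraries were chosen after seeing the data.

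Replicate numbers did not pair all the samples: deviations of same-numbered ETH and MJ libraries correlated at 0.765, 0.511 and -0.247, and ETH replicate 3 correlated with MJ replicate 2 at 0.767. ETH replicate 1 correlated with MJ replicates 2 and 3 at -0.802 and 0.082, and ETH replicate 2 with MJ replicates 1 and 3 at -0.638 and 0.135. Whether the first replicates share a batch was not tested. With a replicate block, 588 and 591 genes were called over 15 libraries and 13 and 57 over 6, and at 24 h 74 and 44.

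No called named gene changed direction in any alternative. Of 47, 45 of the 45 that DESeq2 could judge kept the call, 42 with voom, 43 with library totals 9 of 46 with the 6 libraries and 5 of 46 with the replicate block over 6 libraries, where EBF2 (edgeR adjusted p = 0.069), FAD7 (0.0573) and CRO_015412 (0.0615) were not called. Genes that changed sign were not called. Leaving out single libraries, the log2 fold change ranged from -0.012 to 0.075 for EIN2a, -0.042 to 0.077 for EIN2b, -0.238 to 0.018 for EER4, -2.995 to 0.572 for CRF3, -2.072 to 1.746 for CRF4, -0.204 to 0.414 for PRX1, -6.176 to 1.168 for T3O, -2.017 to 0.185 for BIS2, -0.482 to 0.883 for GGPS1, -0.101 to 0.784 for TRP1, -0.079 to 0.837 for AS1, -0.055 to 0.035 for AT4G26220 and -0.5 to 0.763 for FLS3. Without both first replicates EIN2b had -0.046 and PRX1 -0.001. With voom EIN2b had -0.025, AT4G26220 0.015 and FLS3 -0.056. By library totals EER4 had 0.014 and AT4G26220 0.087, which had 0.015 with upper-quartile scaling. FLS3 had -0.007 with the replicate block over 6 libraries.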
